A study of Mus musculus with 45 samples.

Results

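The miR-23, miR-27 and miR-24 miRNAs are made from a pair of paralogous gene clusters, a and b. The 5 mature miRNAs described here are listed as mmu-mir-23a-3p, mmu-mir-23b-3p, mmu-mir-27a-3p, mmu-mir-27b-3p and mmu-mir-24-3p in the tables of alveolar macrophage (AM) miRNAs, were taken by these names and are written miR-23a-3p and so on. Of the 476 miRNAs listed in any table and the 206 listed in all 6, these 5 were listed in all 6. The question followed here is how the a copies compare with the b copies between genotypes and between mice exposed to ozone (O3) and to filtered air (FA).

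AM were collected by lavage of the lung from 45 C57BL/6 mice aged 12 weeks, 18 h after an exposure of 3 h, and their small RNA was sequenced with 1 library for each mouse. The SP-A2 mice carried the human SP-A2 (1A0) gene, the co-ex mice carried human SP-A1 and SP-A2 (6A2/1A0), and the KO mice carried neither. All 3 genotypes lack the mouse SP-A gene, since the human genes were placed on the SP-A KO background, so no group had mouse SP-A. SP-A, a collectin of lung surfactant, is secreted mainly by the epithelium and acts on AM from outside. With both sexes and both exposures these are 12 groups of 4 mice, apart from 3 mice in each exposure group of the SP-A2 males and in the O3 group of the co-ex males. The promoter behind the human genes and a cell sort after lavage are not given in the sources used here.

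A miRNA guides the Argonaute protein to messenger RNAs that pair with its seed, bases 2 to 8 from the 5′ end, and lowers their stability or translation. Each cluster is transcribed as 1 primary RNA, which is cut into 3 hairpins, so that the miRNAs of a cluster share a transcript but can differ in processing and stability. In macrophages, miR-23a, miR-27a and miR-24 are known from work on polarization and on the inflammatory response, and the cluster b miRNAs are also abundant in stromal and vascular cells. The mature miR-24-3p made from both clusters is the same molecule, and it has no a and b copies that sequencing could separate.

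Mature sequences and positions are from RefSeq and its GRCm38.p6 annotation of the mouse genome, which held 4 of the 5 miRNAs. miR-23b-3p is named only. The genome build behind the tables is not given in the sources used here, and the miRNAs were matched by name. The sequences are shown because the a and b copies are told apart by few bases, and the capitals mark the seed.
miR-23a-3p: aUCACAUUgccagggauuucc
miR-27a-3p: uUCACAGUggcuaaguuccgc
miR-27b-3p: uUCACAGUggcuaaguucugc
miR-24-3p: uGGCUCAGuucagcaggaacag
miR-27a-3p and miR-27b-3p shared the seed UCACAGU and differed by 1 of 21 bases, C19U, counted from the 5′ end with the base of miR-27a-3p first. No other mature miRNA of the 1738 in the RefSeq table had this seed. The seed of miR-23a-3p shared its first 5 bases, UCACA, with that of miR-27a-3p, and 7 of the 1738 mature miRNAs carried UCACA at bases 2 to 6. The rule by which the authors assigned reads that could match either copy is not given in the sources used here, so the split between such close copies is uncertain to that extent.

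Cluster a spans 404 bases of the plus strand at chr8:84208518-84208921 (Mir23a, Mir27a and Mir24-2). Its precursors lie outside protein-coding genes, and the lincRNA gene Gm26532 overlaps the last 2 bases of Mir24-2. Cluster b spans 792 bases of the plus strand at chr13:63300484-63301275 (Mir23b, Mir27b and Mir24-1), inside the protein-coding gene 2010111I01Rik, where Mir23b is intronic and Mir27b and Mir24-1 overlap annotated exons. The gene Fancc covers the same stretch on the opposite strand.

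Between 137965 and 2884013 reads per mouse fell on listed miRNAs, which is not the depth of the library. A list of 7 miRNAs of macrophages and other blood cells took between 0.369% and 19.2% of the listed values of a mouse. In 8 mice the library stood apart, with over 40 of the 206 shared miRNAs at 0 or over 30% of the summed value on 1 miRNA. These were co-ex males after FA 1, 3 and 4, co-ex male after O3 2, co-ex female after FA 4, KO male after O3 4 and KO females after FA 3 and 4, so that 4 of the 8 co-ex mice after FA were among them. The comparisons that hold such mice were also made without them.

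All 5 miRNAs had reads in every mouse, from 379 reads on miR-27b-3p upward, and together they took between 1.69% and 11.7% of the listed values (median 6.47%). miR-23a-3p was the most abundant, with a median share of 3.24% and a rank among the miRNAs of a mouse between 4 and 16 (median 9). miR-24-3p followed with a median of 1.56% (ranks 6 to 35), then miR-23b-3p with 0.973% (ranks 15 to 40). miR-27b-3p with 0.430% (ranks 17 to 56) and miR-27a-3p with 0.395% (ranks 20 to 75) were lowest, and these neighbours were in either order from mouse to mouse. Within cluster a, miR-23a-3p was 2.83 to 38.8 times as abundant as miR-27a-3p (median 7.41), and within cluster b, miR-23b-3p was 0.899 to 4.97 times as abundant as miR-27b-3p (median 2.08). Ligation to adapters differs between sequences, so ratios between miRNAs are ratios of reads and not of molecules.

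**Figure D1:**
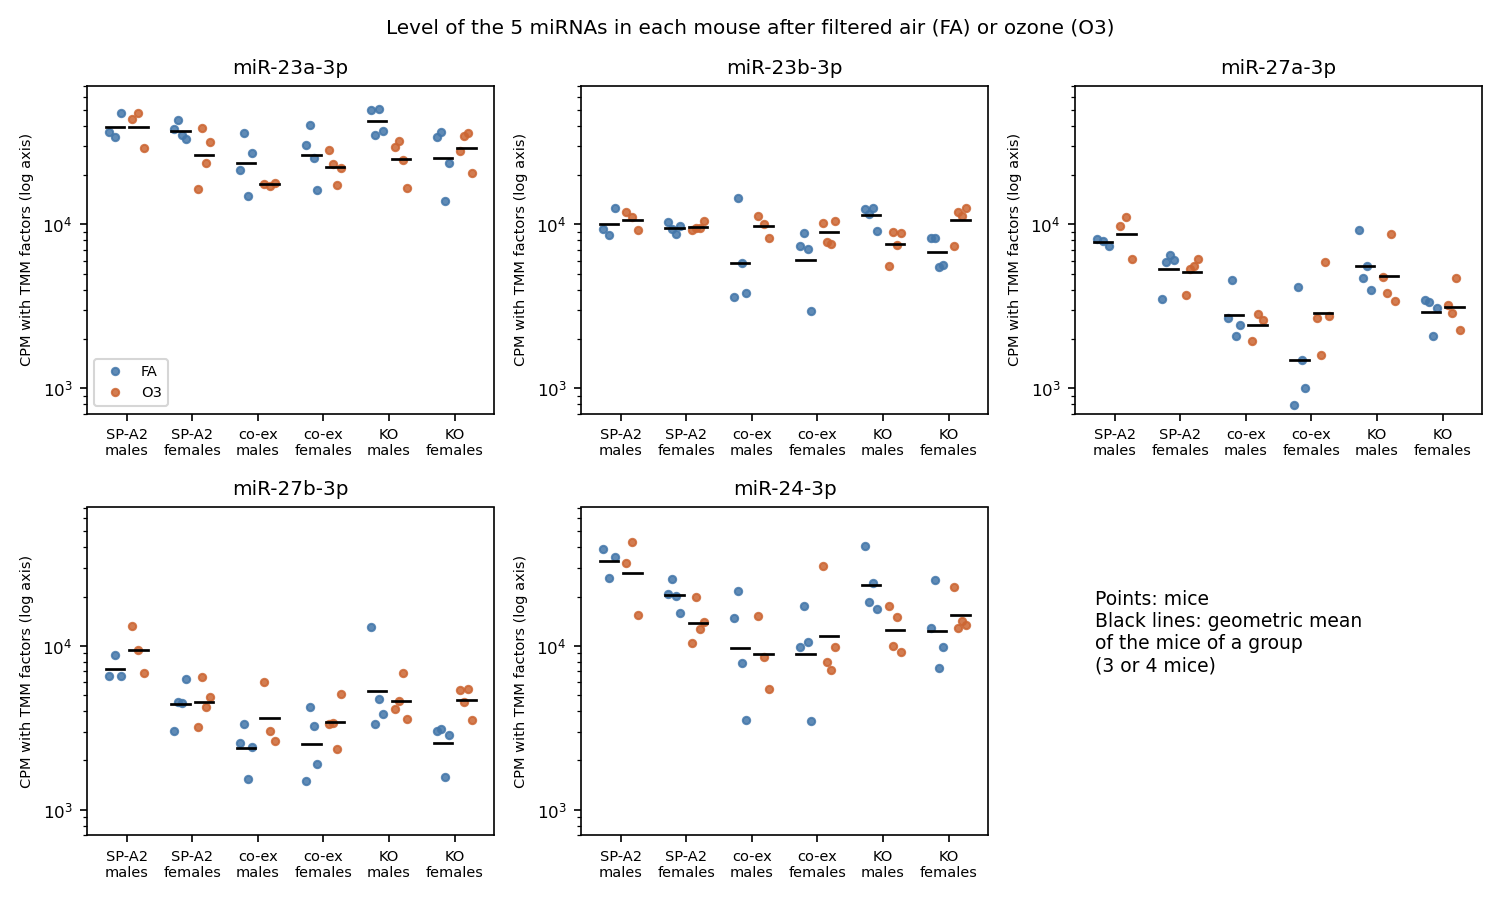
The level of each miRNA in counts per 1000000 reads (CPM) over the 206 miRNAs shared by all tables, scaled by a TMM factor of the mouse, on a log axis, for each mouse (points) by table and exposure, with the geometric mean of the group (line). miR-23a-3p lies at the top and miR-27a-3p and miR-27b-3p at the bottom in most groups, and the co-ex mice reach the lowest values of miR-27a-3p and miR-27b-3p, 785 and 1488 CPM.

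The a and b copies of miR-23 were compared within each mouse, which removes the scaling of the library. miR-23a-3p exceeded miR-23b-3p in 45 of 45 mice, with a ratio between 1.56 and 7.24 (median 3.61). After FA the ratio was 2.51 at the lowest, 4.02 at the median and 7.24 at the highest (23 mice), and after O3 it was 1.56, 2.94 and 5.39 (22 mice). The ranges overlap, but 9 of the 22 O3 mice lay below the lowest FA mouse, and 20 of the 23 FA mice lay above the O3 median.

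The geometric mean ratio of miR-23a-3p to miR-23b-3p, taken over the 6 tables, fell from 3.96 after FA to 2.73 after O3. This is 0.690-fold or a log2 difference of -0.54 ± 0.13 (SE, 22 against 23 mice). The ratio was lower after O3 in 6 of 6 tables. The difference passed a two-sided permutation test with 100000 resamples within tables (p = 0.00012, adjusted p = 0.0012 over the 10 tests of the copy ratios). Without the 8 mice that stood apart, the log2 difference was -0.38 (permutation test, adjusted p = 0.021). A shift of this size is not particular to the pair: among the 1711 pairs of the 59 abundant shared miRNAs (median value of at least 1000), 45.4% had a ratio that shifted at least as far between O3 and FA.

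The size of the difference was not the same in all tables, and whether it differed between tables was not tested. In the co-ex males the ratio was 6.01, 2.52, 2.56 and 7.24 in the 4 FA mice and 1.56, 1.72 and 2.17 in the 3 O3 mice, a log2 difference of -1.19 (0.439-fold). No O3 mouse reached the lowest FA mouse, but both highest FA values came from libraries that stood apart, and the exact permutation test (two-sided) gave p = 0.0857 with 0.0286 as the smallest p this design allows. Without the 4 of these mice that stood apart, 1 FA and 2 O3 mice were left and the log2 difference was -0.45 (0.730-fold). In the co-ex females it was 4.12, 4.55, 3.61 and 5.52 after FA and 2.78, 2.98, 2.31 and 2.11 after O3, again with no overlap. The log2 difference there was -0.80 (0.574-fold), with an exact permutation p of 0.0286, the smallest possible, and an adjusted p of 0.171 over 12 such tests. It was -0.69 without FA mouse 4, which stood apart, still with no overlap.

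In the other 4 tables the FA and O3 mice overlapped. The SP-A2 females had 3.67, 4.66, 4.02 and 3.42 after FA and 1.78, 4.05, 2.51 and 3.05 after O3 (log2 difference -0.52). The KO females had 4.10, 4.43, 2.51 and 4.20 after FA and 3.81, 2.89, 3.22 and 1.62 after O3 (log2 difference -0.43), and -0.63 with no overlap without FA mice 3 and 4, which stood apart. The smallest differences were in the KO males (-0.18) and the SP-A2 males (-0.08), whose FA mice lay close together at 3.94, 3.97 and 3.79. Thus 3 of 4 SP-A2 females and 1 of 4 KO females after O3 lay below the lowest FA mouse of their table. The log2 differences of KO males and SP-A2 males had the other sign without 1 of the mice, at most 0.09 without KO male after O3 4 and 0.03 without SP-A2 male after O3 3.

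**Figure D2:**
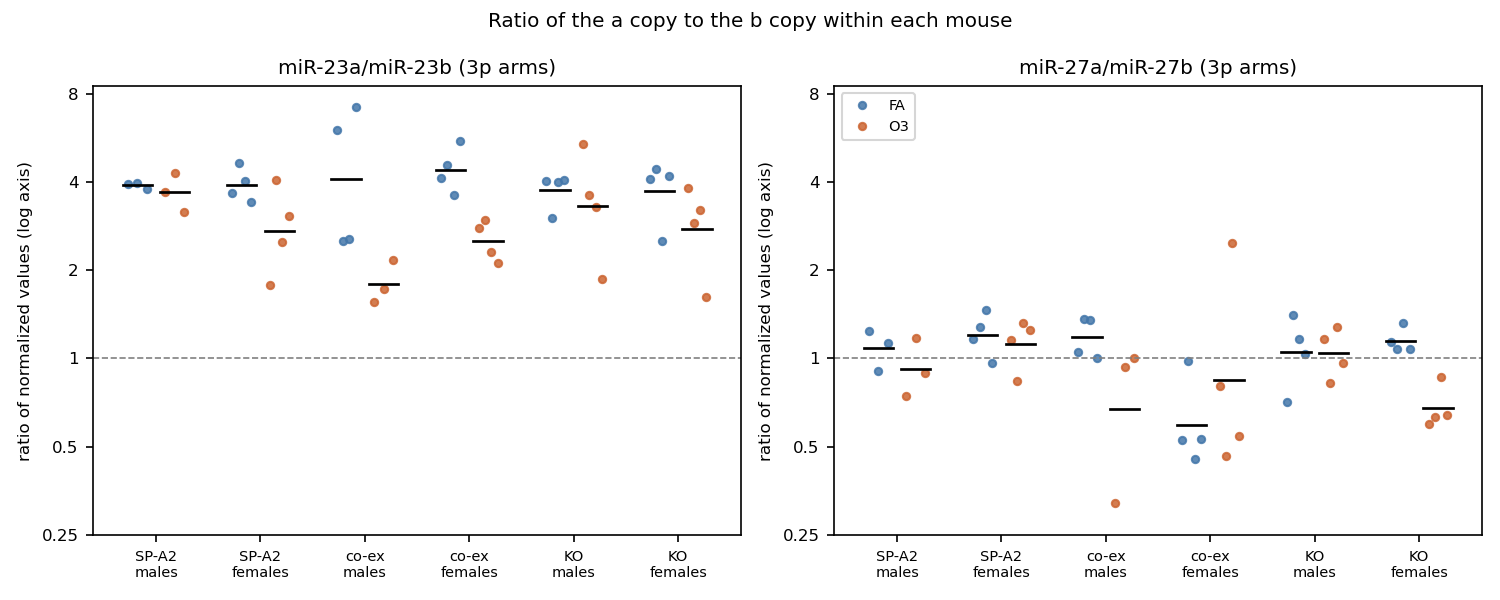
The ratio of the a copy to the b copy of miR-23 (left) and miR-27 (right) in each mouse, on a log axis, by table and exposure, with the geometric mean of the group (line) and a dashed line at a ratio of 1. The miR-23 ratio lies above 1 in 45 of 45 mice and its O3 mean is below its FA mean in 6 of 6 tables, while the miR-27 ratio lies around 1.

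miRNAs of other cells moved with the exposure beside this ratio. The summed share of the mesenchymal list (8 to 11 of 12 miRNAs listed) was higher after O3 in every table, with table medians between 0.174% and 0.642% after FA and between 0.914% and 1.75% after O3, and without overlap in 5 of 6 tables. In the fit over all tables, 8 of 8 mesenchymal and 6 of 9 epithelial miRNAs were called higher after O3, against 27.2% of the 206 called in either direction. Without the 8 mice that stood apart, the median log2 differences of these lists were 1.96 and 1.02, against -0.15 over all 206. The epithelial list (10 to 13 of 14 listed) went from medians between 0.434% and 0.988% to medians between 0.977% and 1.51%. The endothelial list (2 miRNAs) was not listed in 3 tables, the co-ex tables among them. In the others its summed share was at most 0.00364% after FA and 0.107% after O3, higher after O3 without overlap in 2 tables, and 1 of 2 miRNAs was called higher in the SP-A2 males. The list of macrophage and other blood cells had a lower median after O3 in 3 of 6 tables. In the SP-A2 males it was lower without overlap, 17.8% to 19.2% after FA and 5.45% to 16.2% after O3. The SP-A2 females went from a median of 10.1% to 3.56%, and 1 of 7 miRNAs was called lower in either sex. The median was higher in the co-ex males, KO males and KO females. Of its 6 shared miRNAs, 0 were called in the fit over all tables, and 1 was called lower without the 8 mice that stood apart. The erythroid list had a lower median in 2 tables, without overlap in the KO females. The lymphoid list (3 miRNAs) had a lower median in 5 of 6 tables, and 1 of its 3 miRNAs was called lower in the fit over all tables. The part of these lists in the change of the ratio was not tested, and in lavage cells measured in bulk, a change in the mix of cells and a change of RNA per cell cannot be told apart.

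The copies of miR-27 were near parity. miR-27a-3p exceeded miR-27b-3p in 24 of 45 mice, with a ratio between 0.321 and 2.48 (median 1.00). The geometric mean ratio was 1.02 after FA and 0.863 after O3, lower after O3 in 5 of 6 tables. The log2 difference was -0.24 ± 0.15 (SE). This did not pass the permutation test (p = 0.136, adjusted p = 0.385 over the 10 tests), but without co-ex female after O3 3, whose ratio of 2.48 was the highest of all mice, it did (log2 difference -0.32, adjusted p = 0.0299). It was -0.30 without the 8 mice that stood apart (adjusted p = 0.490). In the KO females the ratio was 1.14, 1.07, 1.32 and 1.07 after FA and 0.600, 0.630, 0.862 and 0.640 after O3, with no overlap. That difference (log2 -0.76) had an exact permutation p of 0.0286, the smallest possible, and an adjusted p of 0.171. Without FA mice 3 and 4 it was -0.71, again with no overlap.

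Genotype and sex did not shift the copy ratios past the test. The geometric mean miR-27 ratio was 1.08 in SP-A2 mice and 0.794 in co-ex mice. The log2 difference was 0.44 ± 0.22 (SE), with a permutation p of 0.0514 and an adjusted p of 0.257. Without co-ex female after O3 3 this difference passed (0.57, adjusted p = 0.0215), as did that of co-ex against KO (-0.40, adjusted p = 0.0541). The 3 differences between genotypes in the miR-23 ratio had adjusted p values between 0.385 and 0.700 in the permutation test. Its geometric mean was 3.52 for SP-A2 mice, 3.01 for co-ex mice and 3.36 for KO mice. Without the 8 mice that stood apart, it was lower in co-ex than in KO mice (log2 difference -0.47, adjusted p = 0.0377) and higher in SP-A2 than in co-ex mice (0.42, adjusted p = 0.0439). Males and females differed by 0.02 (miR-23) and 0.12 (miR-27) on the log2 scale, with adjusted p values of 0.879 and 0.603.

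Each miRNA on its own was then compared between O3 and FA within each table, with limma on log2(normalized value + 1), where a normalized value gives the reads of a mouse scaled by 1 factor. None of the 5 was called at an adjusted p below 0.1 in any table (limma, Benjamini-Hochberg adjustment over the table), against 1.43% of all 1960 tests of the 6 tables. By table, the share of all miRNAs called was 5.18% for the KO males, 1.38% for the co-ex females, 1.07% and 0.67% for SP-A2 females and males, and 0% for the co-ex males and the KO females. In each table, edgeR and DESeq2 on whole reads also called 0 of the 5. Of the 30 tests, 1 had an unadjusted p below 0.05, against 11.7% of all tests, and the adjusted p values lay between 0.496 and 0.980. Their median log2 difference was 0.22, with 21 of 30 above 0. Of all miRNAs of a table, between 43.0% (KO males) and 67.1% (co-ex males) were above 0.

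The b copies and miR-27a-3p lay mostly above 0 and miR-23a-3p mostly below. miR-27b-3p, of cluster b, was above 0 in 6 of 6 tables (log2 0.17 to 0.99), though in the KO males the sign turned with the scaling, to -0.07 under median-ratio factors. miR-23b-3p, its neighbour in the cluster, was above 0 in 5 of 6 tables (-0.21 to 0.92), and so was miR-27a-3p (-0.03 to 1.08). miR-23a-3p was above 0 in 2 of 6 tables (-0.40 to 0.33), and miR-24-3p in 3 of 6 (-0.55 to 0.48). Without the mice that stood apart, miR-23b-3p and miR-24-3p of the co-ex males and miR-23a-3p and miR-24-3p of the KO females turned to the other side of 0. The median of all miRNAs of a table was itself off 0, from -0.29 in the KO males to 0.64 in the co-ex males.

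In 2 of the 30 tests the FA and O3 mice did not overlap, both higher after O3, against 6.68% of all 1960 tests higher and 3.52% lower without overlap. Both were cluster b miRNAs in the KO females. miR-27b-3p had normalized values of 2331, 2180, 1250 and 2450 after FA and of 5331, 3584, 4576 and 2803 after O3, and every O3 mouse exceeded every FA mouse. Its log2 difference was 0.99 ± 0.44 (SE), 1.99-fold, with an adjusted p of 0.628 (limma). miR-23b-3p had 6393, 5839, 4369 and 4818 after FA and 7402, 9394, 9395 and 10073 after O3, with a log2 difference of 0.77 ± 0.39 (SE) and an adjusted p of 0.679. In this table, 3.14% of all miRNAs were higher after O3 without overlap, the median log2 difference of all miRNAs was 0.45, and FA mice 3 and 4 were libraries that stood apart. Without them, both were higher after O3 without overlap at 0.81 (miR-27b-3p) and 0.56 (miR-23b-3p), as were 6.27% of all miRNAs. The cluster a miRNAs of the same mice overlapped, with log2 differences of 0.33 for miR-23a-3p and 0.23 for miR-27a-3p (-0.069 and 0.10 without them).

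**Figure D3:**
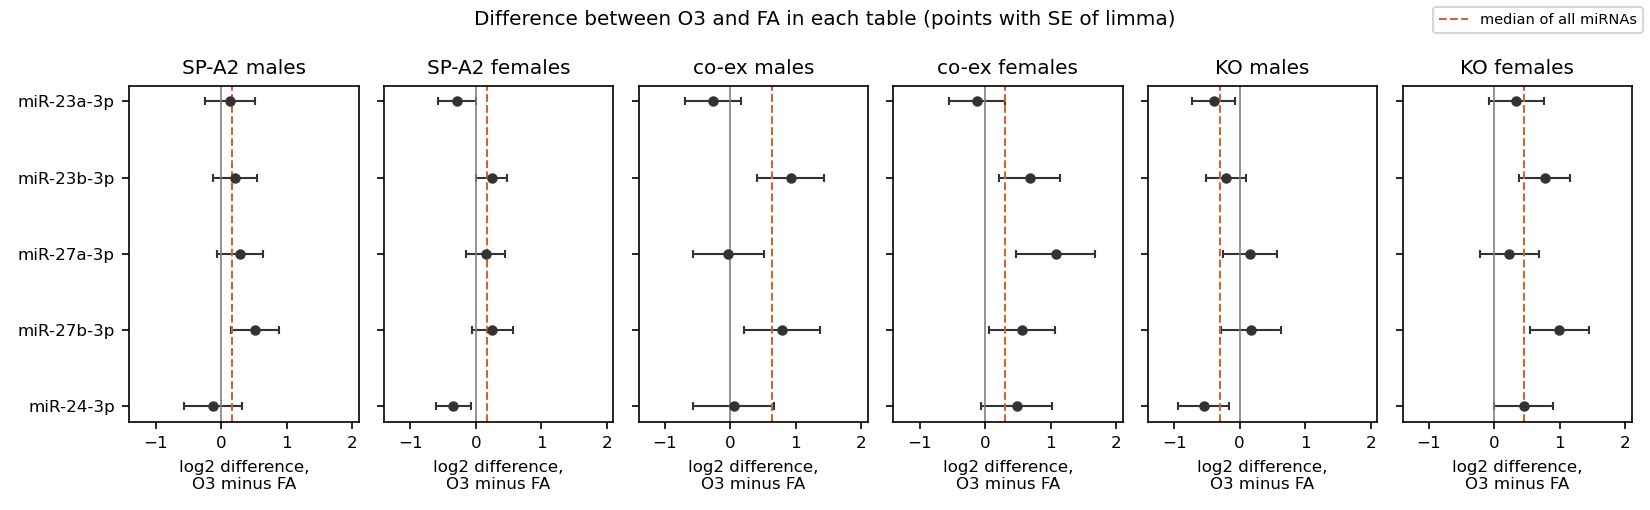
The log2 difference between O3 and FA of each miRNA in each of the 6 tables (points) with its SE from limma, a grey line at 0 and a dashed line at the median of all miRNAs of the table. The point of miR-23b-3p lies to the right of miR-23a-3p in every table, and the largest difference is that of miR-27a-3p in the co-ex females, 1.08.

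In the co-ex females, miR-27a-3p had normalized values of 717, 3255, 1207 and 944 after FA and of 2482, 1303, 6029 and 2709 after O3, with overlap (log2 difference 1.08 ± 0.61, SE, adjusted p = 0.501 in limma). The values of miR-24-3p in the same mice were 8957, 13585, 8556 and 3292 after FA and 28123, 6557, 7352 and 9700 after O3, where 1 O3 mouse lay far above the rest. In the co-ex males, miR-23b-3p had 3874, 10643, 5217 and 3598 after FA and 12760, 8804 and 8860 after O3, and FA mouse 2 lay among the O3 mice (log2 difference 0.92 ± 0.51, SE, adjusted p = 0.881). miR-23a-3p of the same co-ex males had 23292, 26827, 13356 and 26040 after FA and 19886, 15140 and 19236 after O3, with a log2 difference of -0.27 ± 0.43 (SE). The copies of miR-23 thus had differences of opposite sign in these males, and neither passed the test. Without the 4 mice that stood apart they were -0.0014 for miR-23b-3p and -0.46 for miR-23a-3p, from 1 FA and 2 O3 mice.

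All mice were then set on a common scale, CPM with TMM factors over the 206 shared miRNAs, and the 12 groups were fitted together with limma. Over all tables, 0 of the 5 miRNAs were called between O3 and FA, against 27.2% of the 206. miR-23a-3p had a median of 34924 CPM after FA and 26466 CPM after O3, and its log2 difference was -0.29 ± 0.14 (SE, adjusted p = 0.131, unadjusted p = 0.0391). miR-27b-3p had 3353 and 4594 CPM, with a log2 difference of 0.36 ± 0.17 (SE, adjusted p = 0.129, unadjusted p = 0.0374). These 2 of 5 were the members with an unadjusted p below 0.05, against 32% of the 206.

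The remaining differences over all tables were 0.25 ± 0.14 for miR-23b-3p, 0.12 ± 0.18 for miR-27a-3p and -0.20 ± 0.21 for miR-24-3p (log2, SE), with adjusted p values between 0.223 and 0.692 in limma. The count of calls depended on the scaling and on single mice. edgeR called 0 of the 5, and DESeq2 and median-ratio factors called miR-23b-3p and miR-27b-3p higher. Of the 45 fits that left out 1 mouse, 26 called 1 or 2. miR-23a-3p was called lower in 21 of the 45, miR-27b-3p higher in 6 and miR-23b-3p higher in 3. The fits with 2 calls left out co-ex male after FA 2 or 3, KO male after FA 1 or KO female after FA 3. Without the 8 mice that stood apart, miR-23a-3p was called lower (-0.42, adjusted p = 0.039) and miR-23b-3p was at -0.04. When the copies were summed, the log2 difference was -0.17 for miR-23a and miR-23b together and 0.24 for miR-27a and miR-27b together, with adjusted p values of 0.359 and 0.303.

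Taken by genotype, the co-ex mice had 1 call between O3 and FA, against 15.5% of the 206 (12.6% higher after O3). miR-23b-3p was higher after O3 in co-ex mice, 6432 CPM at the median after FA (2959 to 14398) and 10034 CPM after O3 (7545 to 11259), a log2 difference of 0.65 ± 0.24 (SE, adjusted p = 0.0748). The ranges overlap. The call was lost without the 8 mice that stood apart (log2 difference -0.022), with edgeR, without a scaling factor, with summed copies, and when co-ex male after FA 1 or 4, co-ex male after O3 1, co-ex female after FA 4 or co-ex female after O3 1 or 4 was left out, which gave 0 calls each. For the SP-A2 mice and the KO mice 0 of the 5 were called with limma, edgeR or DESeq2, against 0.485% and 4.85% of the 206 with limma. An unadjusted p below 0.05 was found for 0 of the 5 there, against 5.83% and 19.4% of the 206.

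The clearest differences between genotypes were between SP-A2 and co-ex mice after FA, where 5 of 5 miRNAs were called higher in SP-A2, against 41.7% of the 206 called in either direction and 32.5% called higher. In that comparison the median log2 difference of all 206 was 0.99, so the miRNAs are described relative to it. miR-27a-3p, of cluster a, differed most. It had 3514 to 8181 CPM in the 7 SP-A2 mice (median 6539) and 785 to 4568 CPM in the 8 co-ex mice (median 2258), and 1 SP-A2 mouse lay within the range of the co-ex mice. Its log2 difference was 1.66 ± 0.30 (SE), 3.16-fold, with an adjusted p of 0.000258 in limma, which is 0.67 above the median of all miRNAs.

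miR-24-3p (log2 1.48 ± 0.36, SE) and miR-27b-3p (1.22 ± 0.29, SE) were also above that median, by 0.49 and 0.23, each with an adjusted p of 0.00186. Both miR-23 copies lay below it: miR-23a-3p at 0.60 ± 0.23 (SE, adjusted p = 0.0398) was 0.39 under the median, and miR-23b-3p at 0.72 ± 0.24 (SE, adjusted p = 0.016) was 0.27 under it. Without the 8 mice that stood apart, of which 4 are co-ex mice after FA, 2 of 5 were called, miR-27a-3p (1.27, adjusted p = 0.0343) and miR-27b-3p (0.95, adjusted p = 0.0795). The co-ex mice after FA were then 1 male and 3 females, and the median log2 difference of all shared miRNAs was 0.33. miR-27a-3p, miR-27b-3p and miR-24-3p (0.73) lay above this lower median. miR-23a-3p (0.23) lay close under it, and miR-23b-3p was at -0.05. edgeR called 3 of 5, without the miR-23 copies.

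After O3, 4 of 5 were called higher in SP-A2 than in co-ex mice, against 15.5% of the 206 in either direction and 8.74% higher, with a median log2 difference of 0.49 over all. miR-27a-3p again differed most, 6118 CPM at the median of the SP-A2 mice (3693 to 11087) and 2696 CPM at that of the co-ex mice (1584 to 5852), a log2 difference of 1.33 ± 0.32 (SE, adjusted p = 0.00451). miR-24-3p (0.95, adjusted p = 0.0936), miR-27b-3p (0.90, adjusted p = 0.0512) and miR-23a-3p (0.70, adjusted p = 0.0618) were also called in limma. miR-23b-3p was not (0.13, adjusted p = 0.819), and it lay 0.36 below the median of all. Without the 8 mice, miR-27a-3p was at 1.23, against a median of 0.31 over all 206. The others were then at 0.77 (miR-24-3p), 0.67 (miR-27b-3p), 0.53 (miR-23a-3p) and -0.03 (miR-23b-3p). The fits without SP-A2 male after O3 2 or co-ex female after O3 3 called 1 of 5. Those without SP-A2 male after O3 1, SP-A2 female after O3 4 or co-ex male after O3 2 or 3 called 2. The call of miR-24-3p was kept in 4 of 8 other settings and lost in 17 of the 45 fits without 1 mouse. The calls of miR-27b-3p and miR-23a-3p were each kept in 7 of 8 settings and lost in 5 and 3 of the 45 fits.

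Marker lists also differed between these genotypes. After FA, 7 of 9 epithelial, 4 of 8 mesenchymal and 4 of 6 miRNAs of macrophages and other blood cells were called higher in SP-A2 than in co-ex mice, against 32.5% of the 206, and 0 were called lower. These were 5 of 9, 2 of 8 and 4 of 6 without the 8 mice, against 20.9% of the 206. After O3 they were 1 of 9, 0 of 8 and 1 of 6, against 8.74% of the 206. The part of these lists in the differences of the 5 miRNAs was not tested. The SP-A2 and co-ex mice are compared through tables that the authors normalized separately, and a difference in library between the tables cannot be told apart from the genotype.

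**Figure D4:**
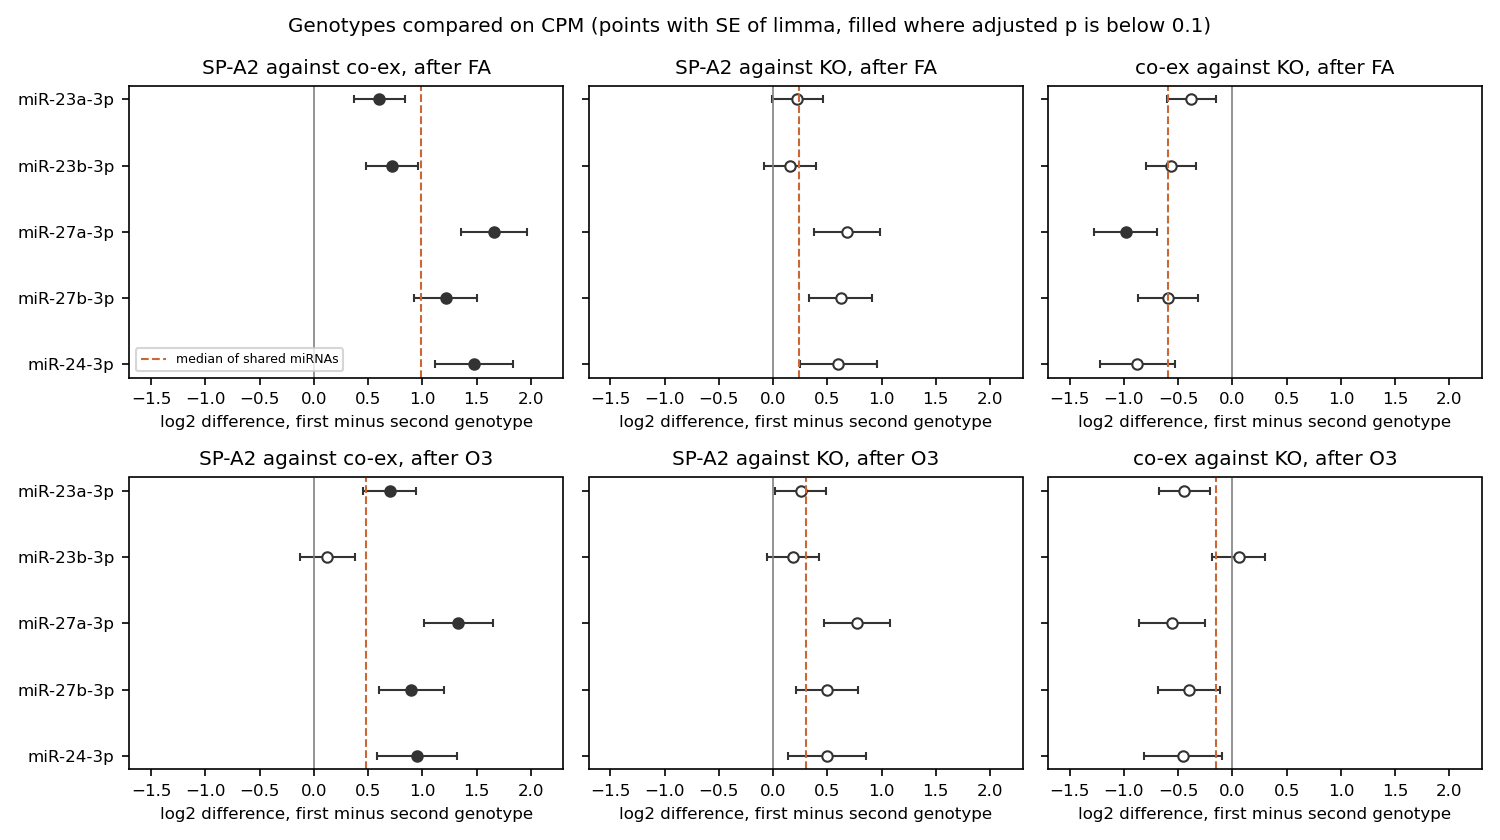
The log2 difference of each miRNA between 2 genotypes after FA (top) and after O3 (bottom) with its SE from limma, filled where the adjusted p is below 0.1, with a grey line at 0 and a dashed line at the median of the 206 shared miRNAs. Between SP-A2 and co-ex mice 5 of 5 points are filled after FA and 4 of 5 after O3, and miR-27a-3p lies furthest to the right of the dashed line.

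Between co-ex and KO mice after FA, 1 of 5 was called, against 10.2% of the 206 (9.71% lower in co-ex), whose median log2 difference was -0.59. miR-27a-3p was lower in co-ex than in KO mice (log2 difference -0.98 ± 0.29, SE, adjusted p = 0.0378), with 2093 to 9291 CPM in the KO mice (median 3700). The other differences were between -0.88 for miR-24-3p and -0.38 for miR-23a-3p. In the same comparison 4 of 9 epithelial miRNAs and 1 of 8 mesenchymal miRNAs were called lower in co-ex mice (1 of 9 and 1 of 8 without the 8 mice), and the part of these lists was not tested. The call was lost without the 8 mice (-0.50), with edgeR, with DESeq2 and with both other scalings, while fits that left out 1 mouse called 1 to 4 of the 5. The count moved past 1.5 times in 16 of these 45 fits, up to 4 calls without co-ex female after FA 2 and 3 calls without co-ex male after FA 2 or O3 1, co-ex female after O3 1, KO male after FA 4 or KO female after FA 4.

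SP-A2 and KO mice did not differ past the test in any of the 5, after FA (2.91% of the 206 called) or after O3 (0% called). After FA, miR-27a-3p (0.68, adjusted p = 0.280) and miR-27b-3p (0.62, adjusted p = 0.322) had unadjusted p values of 0.0313 and 0.0375 in limma, against 14.6% of the 206 below 0.05. DESeq2 called 2 of the 5 there, edgeR called 0, and leaving out KO male after FA 1 gave 1 call in limma. After O3, miR-27a-3p (0.78, adjusted p = 0.382) was the member with an unadjusted p below 0.05, against 9.71% of the 206. co-ex and KO mice after O3 had 0 of 5 called with limma, edgeR and DESeq2 (0.971% of the 206 called with limma), and 0 had an unadjusted p below 0.05, against 10.7%.

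Males and females did not differ past the test. Like the genotypes, the sexes are compared through tables that the authors normalized separately. A difference in library between the tables cannot be told apart from sex. After FA all 5 were higher in males, from 0.22 for miR-23a-3p to 0.80 for miR-27a-3p on the log2 scale, and 0 of 5 were called with limma, edgeR or DESeq2 (0% of the 206 with limma). miR-27a-3p (adjusted p = 0.230) and miR-27b-3p (adjusted p = 0.450) had unadjusted p values of 0.00223 and 0.0203, against 7.28% of the 206 below 0.05. Leaving out co-ex male after FA 4, co-ex female after FA 2 or KO male after FA 4 gave 1 call each. After O3 the differences were between -0.07 and 0.39, with 0 calls in limma, edgeR and DESeq2 (0% of the 206 with limma) and 0 unadjusted p values below 0.05, against 3.88%.

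The response to O3 was compared between genotypes and between sexes in 7 contrasts, 35 tests in all, and 0 were called with limma (adjusted p between 0.333 and 1.00), edgeR or DESeq2. Of the 206, 0% were called in 6 of these contrasts and 0.971% in that of co-ex against KO. Among the 35 tests, 2 had an unadjusted p below 0.05, both in the response of KO males against KO females, where 11.7% of the 206 did. The response of males minus that of females was -1.22 for miR-23b-3p and -0.97 for miR-23a-3p on the log2 scale, and the median of all 206 was -0.52.

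The other arm of each hairpin was listed in part. These 5p arms are usually the passenger strand, which is degraded when the 3p arm is loaded. Their sequences are shown because the 2 hairpins of miR-24 can be told apart by them, unlike by the 3p arm, and the capitals mark the seed.
miR-24-1-5p: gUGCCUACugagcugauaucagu
miR-24-2-5p: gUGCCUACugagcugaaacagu
miR-23a-5p and miR-24-2-5p of cluster a were listed in 6 tables, at medians of 543 and 551 reads. The cluster b arms were rarer. miR-24-1-5p was listed in 3 tables (median 11.5 reads, 0 reads in 8 of 22 mice), miR-27b-5p in 2 (median 28.5 reads) and miR-23b-5p in 5 (median 65 reads), while miR-27a-5p of cluster a was listed in 5 (median 62.5 reads).

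None of the 5p arms was called between O3 and FA in any table with limma. miR-23a-5p did not overlap in the SP-A2 males, where its normalized values were 678 to 1336 after FA and 193 to 539 after O3 (log2 difference -1.56 ± 0.50, SE, adjusted p = 0.154), and 9.6% of the miRNAs of that table were lower without overlap. miR-24-1-5p was also lower there without overlap (39 to 132 against 0 to 33), while in the SP-A2 females it was at 0, 22.8, 0 and 0 after FA and at 23.0, 81.5, 7.57 and 63.3 after O3. The sexes thus went in opposite directions at counts of at most 175 reads, and neither difference passed the test. Between SP-A2 and co-ex mice after FA, 2 of the 6 arms, miR-23a-5p and miR-24-2-5p, could be compared. miR-24-2-5p was called higher in SP-A2 (2.78 ± 0.81, SE, adjusted p = 0.00635), against 32.5% of the 206, and lower in co-ex than in KO mice after FA (-2.17, adjusted p = 0.0899), against 9.71%. The co-ex mice after FA included 1 at 0 reads, a library that stood apart, and without the 8 mice neither difference was called (1.16, adjusted p = 0.106, and -0.91, adjusted p = 0.386). miR-23a-5p was not called between SP-A2 and co-ex mice (0.52, adjusted p = 0.438).

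The log2 ratio of miR-23a-3p to miR-23b-3p had an SD of 0.43 within groups, and that of miR-27a-3p to miR-27b-3p 0.49, against a median of 1.04 over the 1711 pairs of abundant shared miRNAs (quartiles 0.792 and 1.34). For members of the same cluster the SD was 0.52 (miR-23a-3p and miR-27a-3p) and 0.56 (miR-23b-3p and miR-27b-3p). For pairs of different cluster and family it was 0.45 (miR-23a-3p and miR-27b-3p) and 0.59 (miR-23b-3p and miR-27a-3p), so these groups of pairs overlapped. Ratios to miR-24-3p had an SD between 0.56 for miR-23a-3p and 0.69 for miR-27a-3p. These are descriptions over 45 mice that share tables and depth, without a test.

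The likeness of patterns over the 12 groups was measured as the mean absolute difference of centred log2 CPM group means. miR-23a-3p was most like let-7f-5p (0.17), miR-103-3p (0.18) and miR-425-5p (0.19). miR-23b-3p was most like miR-26a-5p (0.23), let-7g-5p (0.27) and miR-191-5p (0.28), and its a copy stood in place 8 of 205 (0.30). miR-27a-3p was most like miR-29a-3p (0.13), then miR-16-5p (0.24) and miR-24-3p (0.25), with miR-22-3p (0.37) next outside the clusters. miR-27b-3p was most like let-7i-5p (0.26), miR-26a-5p (0.27) and miR-29a-3p (0.29) outside the clusters, and miR-24-3p was most like miR-23a-3p (0.21), miR-16-5p (0.22), let-7f-5p (0.25) and miR-29a-3p (0.26). Of the 4 miRNAs with a and b copies, none had its other copy as the nearest pattern.

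Of a list of 10 further miRNAs known from macrophage polarization, 9 were listed in all tables. Some of these also stand on the blood cell and mesenchymal lists above, so they are not a separate set. Between O3 and FA over all tables, 2 of the 9 were called higher and 1 lower, against 27.2% of the 206 called, with a median log2 difference of 0.20 (0.01 over all 206). Between SP-A2 and co-ex mice after FA, 3 of the 9 were called higher and 1 lower, against 41.7% of the 206 called, with a median of -0.03 (0.99 over all 206).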

How the data were processed

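Small RNA libraries of AM from 45 mice were compared. The 6 deposited tables, of which each holds a genotype in a sex, give the miRNAs of a mouse as normalized signal, and the submitters' processing notes name CASAVA and edgeR. The tables also hold a deposited p-value and q-value for O3 against FA and a rank, which were not used. The aligner and miRNA reference are not given in the sources used here. Each value was a whole multiple (within 0.01) of the smallest of its mouse, which gave whole reads.

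Within a table, limma 3.58.1 (R 4.3.3, trend) on log2(value + 1) compared O3 with FA. Groups were compared across tables on log2(CPM + 1) with TMM factors (edgeR 4.0.16) over the 206 shared miRNAs. Calls have a Benjamini-Hochberg adjusted p below 0.1. The ratio of a to b copy within a mouse was tested for O3 against FA by permuting mice within tables. For sex, mice were permuted within genotype and exposure, and for each pair of genotypes within sex and exposure. Named were the 5 miRNAs, the 6 other arms and the 3 nearest patterns of each. Other settings tried were a pseudocount of 0.1 or 10, a filter on low values, other scalings, no scaling factor, edgeR and DESeq2 1.42.0 on whole reads, an FDR of 0.05, whole reads or medians for ratios, a replicate block, summed copies, and fits without 1 mouse. Leaving out the 8 mice apart was added after seeing the data. The limma fits were tested on simulated data. Members, lists and tests were chosen with earlier results of these data known. Confidence from counts covers counting error only, and reads of PCR copies are not independent molecules.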

Additional observations from a re-analysis of the deposited data

Results flagged for a closer look

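In groups of 4 mice, the highest or lowest value was compared with the rest by Dixon's criterion. Of 63 groups and values, 11 had a value past its limit, where chance gives about 1 in 20. KO male after FA 1 lay far above the other FA mice of its table in 3 miRNAs, with normalized values of 7269 for miR-27a-3p, 10199 for miR-27b-3p and 31942 for miR-24-3p, against at most 4001, 3255 and 16636. This mouse also had the most reads on listed miRNAs, 2884013. Among the SP-A2 females after FA, mouse 2 was high in miR-23a-3p (33667) and mouse 1 was low in miR-27a-3p (2527). Replicate 1 after O3 was far above the others in miR-24-3p in the co-ex females (28123) and in the KO females (22778).

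The miR-23a/miR-23b ratio was low in KO male after FA 2, at 3.02, while the other 3 mice lay between 4.01 and 4.06. The miR-27a/miR-27b ratio was high in co-ex female after FA 2 (0.980), in co-ex female after O3 3 (2.48) and in KO female after O3 3 (0.862), each against lower values in the other mice of the group. No test of a difference in response between genotypes or sexes was called for the 5 miRNAs with limma, with 2 of 35 at an unadjusted p below 0.05.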

How the results depend on the processing

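The fall of the miR-23a/miR-23b ratio after O3 kept its direction and passed the test under all 6 planned and added alternatives (log2 difference -0.54 to -0.38) and without any 1 mouse (-0.57 to -0.49). Within tables, 0 of the 5 miRNAs were called under every alternative run. Over all alternatives that keep every mouse or leave out the 8, 267 of 292 values of the main comparisons were classed as unchanged. Most of these values are counts of called miRNAs, which do not show whether the same miRNAs were called. For SP-A2 against co-ex after O3, the count was classed as unchanged in 8 of 9 alternatives. There miR-24-3p kept its call in 4 of 8 alternatives. Between O3 and FA over all tables, median-ratio factors and DESeq2 gave 2 calls, and no scaling factor and the fit without the 8 mice (an alternative chosen after seeing the data) gave 1. The co-ex call was lost (0) without a scaling factor, with edgeR, with the replicate block, with summed copies and without the 8 mice. For co-ex against KO after FA, both other scalings, edgeR, DESeq2 and the fit without the 8 mice gave 0 and summed copies gave 2. DESeq2 gave 2 for SP-A2 against KO after FA. For SP-A2 against co-ex, edgeR gave 3 and the fit without the 8 mice 2 after FA and 1 after O3, with miR-23b-3p at -0.053 and -0.028, and at -0.037 for O3 against FA over all tables. Within tables the same fit gave -0.0014 (miR-23b-3p) and -0.67 (miR-24-3p) in the co-ex males, from 1 FA and 2 O3 mice, where the lone mouse is assumed to vary like the others, and -0.069 (miR-23a-3p) and -0.016 (miR-24-3p) in the KO females. It gave 0.091 and 0.026 for the miR-23 and miR-27 ratios in the KO males. Fits without 1 mouse gave 0 to 2 calls for O3 against FA over all tables, 0 to 1 in co-ex mice, 1 to 4 for co-ex against KO after FA, 0 to 1 for SP-A2 against KO after FA, 4 to 5 and 1 to 4 for SP-A2 against co-ex after FA and O3, and 0 to 1 for males against females after FA. In the co-ex males, miR-24-3p was at -0.13 with edgeR, -0.042 with DESeq2 and -0.41 with the block. In the KO males, miR-27a-3p was at -0.086, -0.23 and -0.076, and miR-27b-3p at -0.074, -0.43 and -0.31, with median-ratio factors, edgeR and DESeq2. The cause of these changes was not tested. The miR-23 ratio of males against females was at -0.021 with medians and -0.061 without the 8 mice, and that of SP-A2 against KO at -0.044 and -0.049. Without the 8 mice it differed between co-ex and KO (-0.47) and between SP-A2 and co-ex (0.42). With 1 mouse left out, differences that crossed 0 ranged, for O3 against FA, from -0.43 to 0.28 (miR-24-3p, SP-A2 males), -0.075 to 0.25 (miR-27a-3p, SP-A2 females), -0.18 to 0.10 (miR-27a-3p, co-ex males), -0.41 to 0.37 (miR-24-3p, co-ex males), -0.31 to 0.029 (miR-23a-3p, co-ex females), -0.15 to 0.40 (miR-27a-3p, KO males) and -0.041 to 0.60 (miR-27b-3p, KO males). For the miR-23 ratio they ranged from -0.19 to 0.028 in SP-A2 males, -0.42 to 0.091 in KO males, -0.027 to 0.064 between sexes and -0.00015 to 0.13 between SP-A2 and KO. For the miR-27 ratio they ranged from -0.21 to 0.042 in SP-A2 females, -0.013 to 0.79 in co-ex females and -0.20 to 0.13 in KO males. Other ranges without 1 mouse were -0.32 to -0.15 (O3 against FA), -0.40 to -0.14 (co-ex against KO) and 0.31 to 0.57 (SP-A2 against co-ex) for the miR-27 ratio. Same-numbered mice did not deviate together (22 pairs, correlations -0.16 to 0.30, 5 over 0.1), so the replicate numbers were not taken as a pairing. The replicate block changed no other call than that of miR-23b-3p in the co-ex mice. The smallest p of the exact permutation tests is 0.1 with 3 mice against 3 and 0.0286 otherwise, and reads on the rarer 5p arms (medians of 11.5 to 65) limit what can be detected for them.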
